A study of Mus musculus with 15 samples.

Results

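The nucleolus is where cells make ribosomes. RNA polymerase I (Pol I) transcribes the precursor of the ribosomal RNAs there, small nucleolar ribonucleoproteins (snoRNPs) modify it, and large sets of assembly factors cut and fold it into the small and the large ribosomal subunit. T cells that leave rest and begin to divide are known to enlarge their nucleoli and to make more ribosomes.

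The levels of 49 genes of this pathway were followed in OT-I CD8+ T cells, whose transgenic receptor recognises the ovalbumin peptide SIINFEKL. The genes were taken by name from the deposited gene count table and sorted into 5 groups by their known step, with 8 genes of snoRNPs, 3 nucleolar chaperones, 20 factors of the small subunit, 11 of the large subunit and 7 of Pol I. All 49 were found among the 55536 annotated genes of the table, and all 49 passed the filter on low counts, which kept 17366 genes. The lowest count of any member in any library was 59, for Npm3.

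The labels describe 15 libraries of CD8+ T cells from mice of the strain OT-1 Tg C57BL/6J, with 5 in each of 3 groups. Naive cells were purified from OT-I mice that had not been used in a transfer. Ag cells were OT-I cells moved into C57BL6/J recipients that received antigen alone (per the study's methods, the peptide with a control rat IgG), and Ag+Costim cells were OT-I cells from recipients that received antigen with agonist antibodies to OX40 and 41BB, costimulatory receptors of the TNF receptor family. Transferred cells came from spleen and lymph nodes after 4 days per the labels, and an earlier time is given in the study's methods. The transfer itself and the recipient environment were thus shared by Ag and Ag+Costim and absent from Naive. The methods describe donors that lack Rag and animals of both sexes, and the labels do not say whether a library came from 1 mouse or a pool, so p-values measure the spread between these libraries.

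Total counts per library ran from 4865952 (Ag 3) to 25280667 (Naive 3). Of the CD8 T cell markers, all 8 of 8 were detected in every group, at a summed level of 5187 to 10468 CPM (the count of a gene scaled to a common library total, as is usual for this unit). The 5 Ag libraries were uneven. Ag 2 and Ag 5 had a recorded input amount of 1.4 and 1.8, against 7 to 10 in the others (no unit is given). B cell markers, all 8 of 8 detected in every group, summed to 29.3 and 32.8 CPM in Ag 2 and Ag 5, to 188, 423 and 247 CPM in Ag 1, 3 and 4, to 25.9 to 47.3 CPM in Ag+Costim and to 33.1 to 36.0 CPM in Naive. Erythroid markers, also 8 of 8, summed to 13.3 to 1243 CPM in Ag, to 4.35 to 36.3 CPM in Ag+Costim and to 55.9 to 150.0 CPM in Naive. Myeloid markers, 8 of 8 in every group, summed to 96.5 and 186 CPM in Naive 2 and 5, to 11.9 to 36.7 CPM in Naive 1, 3 and 4, to 46.3 to 120.02 CPM in Ag and to 63.7 to 140.2 CPM in Ag+Costim. CD4 T cell markers, 4 of 4 in every group, summed to 23.4, 12.1 and 36.8 CPM in Ag 1, 3 and 4. They summed to 3.70 and 4.61 CPM in Ag 2 and 5, to 3.80 to 8.62 CPM in Ag+Costim and to 7.90 to 24.8 CPM in Naive. The percent of reads that were counted was 37.4, 16.9 and 44.3 in Ag 1, 3 and 4, 52.4 and 53.6 in Ag 2 and 5, 51.9 to 52.7 in Ag+Costim and 38.2 to 46.8 in Naive. Genes detected numbered 31845 to 44408 in Ag 1, 3 and 4, 21705 and 20949 in Ag 2 and 5, 23891 to 25410 in Ag+Costim and 30152 to 33853 in Naive. In a deposited FPKM table, not used here, the columns of Ag 1 and Naive 5 held the same values, while in the count tables these libraries differed (totals of 10479358 and 15185851). Members called without Ag 1 and without Naive 5 numbered 0 and 2 in Ag+Costim against Ag (0% and 0.256% of all genes called). They numbered 6 and 10 in Ag against Naive (10.4% and 21.5%), and 13 and 13 in Ag+Costim against Naive (45.5% and 51.0%). The shares of all genes count both directions. Lane 2 carried the 5 Ag libraries together with Ag+Costim 1, 2 and 3, and lane 3 carried the rest.

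Because many of these genes are known targets of MYC, which binds the E-box CACGTG, their promoters were searched for short motifs on both strands. RefSeq promoters (GRCm38, 250 bases before to 50 after the start site) were matched for 43 of the 49 genes. Fbl, Npm1, Rrp12, Dcaf13, Bop1 and Rrs1 were not matched. The E-box was present in 10 of 43 promoters (23.3%), against 11.5% of the 10092 tested genes with a promoter and 8.09% of all 27025. The windows below are shown because they hold every E-box of the members, in capitals within 30 bases, read 5′ to 3′ on the gene's strand.
Imp4, chr1:34439696-34439725, plus strand: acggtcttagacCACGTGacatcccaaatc
Ltv1, chr10:13193092-13193121, minus strand: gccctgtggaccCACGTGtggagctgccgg
Mybbp1a, chr11:72441347-72441376, plus strand: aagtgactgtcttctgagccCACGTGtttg
Nop2, chr6:125131811-125131840, plus strand: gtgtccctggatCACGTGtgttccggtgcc
Pes1, chr11:3963965-3963994, plus strand: ccctaggcagggCACGTGcgggaggaagta
Rrn3, chr16:13780472-13780501, plus strand: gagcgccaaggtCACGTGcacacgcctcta
Rrn3, chr16:13780639-13780668, plus strand: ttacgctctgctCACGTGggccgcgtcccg
Tsr1, chr11:74898092-74898121, plus strand: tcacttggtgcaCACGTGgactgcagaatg
Utp18, chr11:93885769-93885798, minus strand: gcgagcgccggtCACGTGgcttgcggcggc
Utp20, chr10:88826765-88826794, minus strand: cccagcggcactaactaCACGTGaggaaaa
Wdr43, chr17:71616220-71616249, plus strand: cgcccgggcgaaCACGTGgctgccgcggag

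Rrn3 carried a pair of E-boxes, the first starting 215 bases and the second 48 bases before its start site, and in the other 9 genes a single E-box lay between 121 bases before and 41 bases after it. CCGGAAG, a core sequence of ETS factors, was present in 16 of 43 promoters (37.2%), against 20.6% of tested genes. Both motifs were in 5 genes, Ltv1, Nop2, Rrn3, Tsr1 and Utp18, whose CCGGAAG windows are given next with that motif, or its reverse complement, in capitals. No E-box shared a base with a CCGGAAG match.
Ltv1, chr10:13193174-13193203, minus strand: ggctcacgcaaCTTCCGGctacagcctagc
Ltv1, chr10:13193217-13193246, minus strand: agccccacctcCCGGAAGtccccgggaagg
Nop2, chr6:125131834-125131863, plus strand: cggtgccgcggCCGGAAGaggcggggcgtt
Rrn3, chr16:13780683-13780712, plus strand: ctgcagcgccaCTTCCGGggcgggtaggtc
Rrn3, chr16:13780706-13780735, plus strand: gtaggtcgtggCTTCCGGcgcaaggccggg
Tsr1, chr11:74898068-74898097, plus strand: ctcgggtccgcCCGGAAGtagagttcactt
Utp18, chr11:93885742-93885771, minus strand: ggcgcagactcCTTCCGGctccccggggcc
Utp18, chr11:93885854-93885883, minus strand: tccccctccacCCGGAAGatcggccttccc

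TATAAA was in 2 of 43 promoters (Dkc1 and Pes1, 4.65%), against 9.07% of tested genes, and the palindromic core of the NRF1 motif was in 0 of 43, against 2.39%. For Ag+Costim against Ag, the median log2 fold change was 0.50 in the 10 genes with an E-box and 0.43 in the 33 without. For Ag against Naive, it was -0.40 with and -0.17 without. These are descriptions of letters in a window and no measure of binding.

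As a set, the 49 genes lay lowest in Ag. In bulk RNA, fewer cells that express a gene and less RNA per cell cannot be told apart. The mean of log2(CPM + 1) over the 49 genes was 6.40 ± 0.12 for Naive, 6.03 ± 0.26 for Ag and 6.50 ± 0.10 for Ag+Costim (SD, n = 5 libraries each). It was between 5.71 and 6.27 in the Ag libraries and between 6.43 and 6.67 in the Ag+Costim libraries, with no overlap, while Naive libraries reached from 6.22 to 6.54. By step, the nucleolar chaperones stood furthest apart in Ag+Costim, at 8.23 ± 0.12 against 7.24 ± 0.33 in Ag and 7.25 ± 0.21 in Naive. For the small subunit and Pol I genes the mean was highest in Naive, at 6.30 ± 0.15 and 6.19 ± 0.16, against 6.27 ± 0.09 and 6.01 ± 0.09 in Ag+Costim and 5.86 ± 0.22 and 5.64 ± 0.14 in Ag. The small subunit means of Naive and Ag+Costim differed by less than the spread between libraries.

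**Figure D1:**
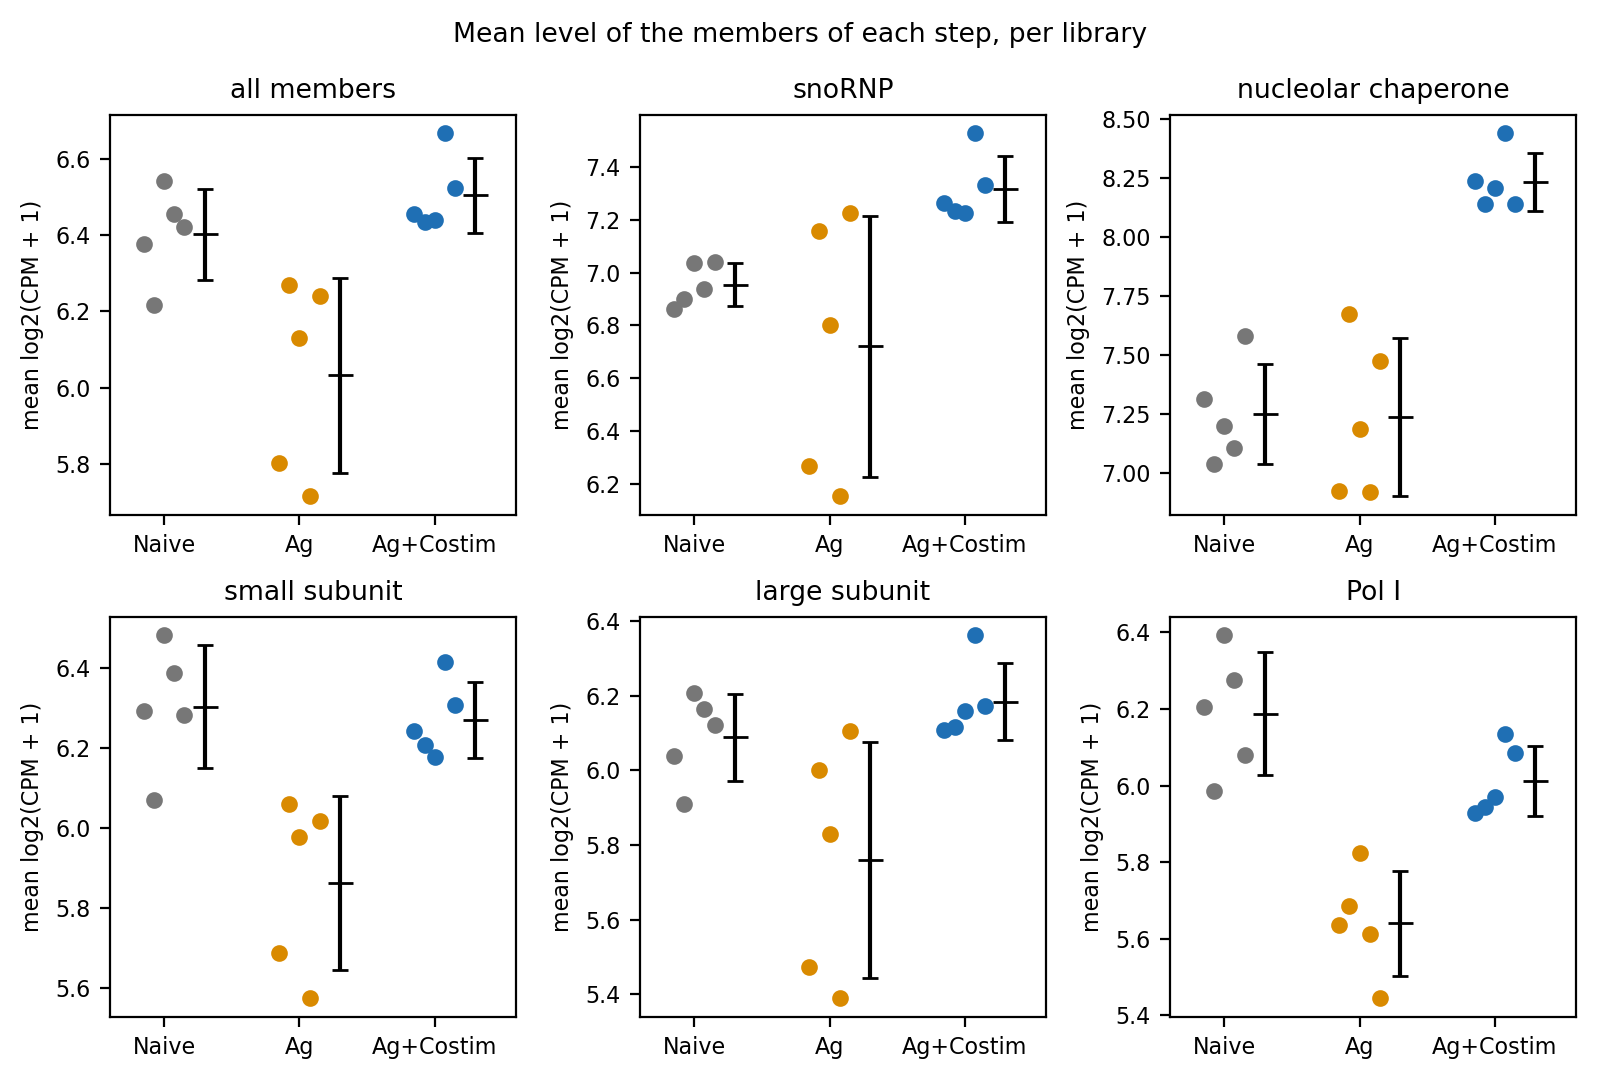
Mean log2(CPM + 1) over the members of each step, 1 point per library, with the group mean and SD (n = 5) as a bar beside the points. For all members, the Ag libraries (5.71 to 6.27) lie below the Ag+Costim libraries (6.43 to 6.67), and the vertical axes do not start at 0.

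The Ag libraries were also the most spread for these genes. The median coefficient of variation of a member was 26.4% in Ag, 14.6% in Naive and 8.91% in Ag+Costim. Of the 49 genes, 28 were higher in both Ag 2 and Ag 5 than in each of Ag 1, 3 and 4, a pattern shown by 22.0% of all genes tested. Ag 4 held the lowest CPM of all 15 libraries for 26 members and Ag 1 for 12. Ag+Costim 4 held the highest of all 15 for 18 members and Naive 3 for 11. In 40 of 49 members, Ag 1, 3 and 4 were each below every Ag+Costim library. The share of all genes with that pattern was not worked out, so it cannot be called particular to the members. The input amount, the B cell markers and the CD4 T cell markers separated Ag 2 and Ag 5 from Ag 1, 3 and 4 as well. So did the percent of reads counted and the number of genes detected. The part of each in the patterns above was not tested.

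**Figure D2:**
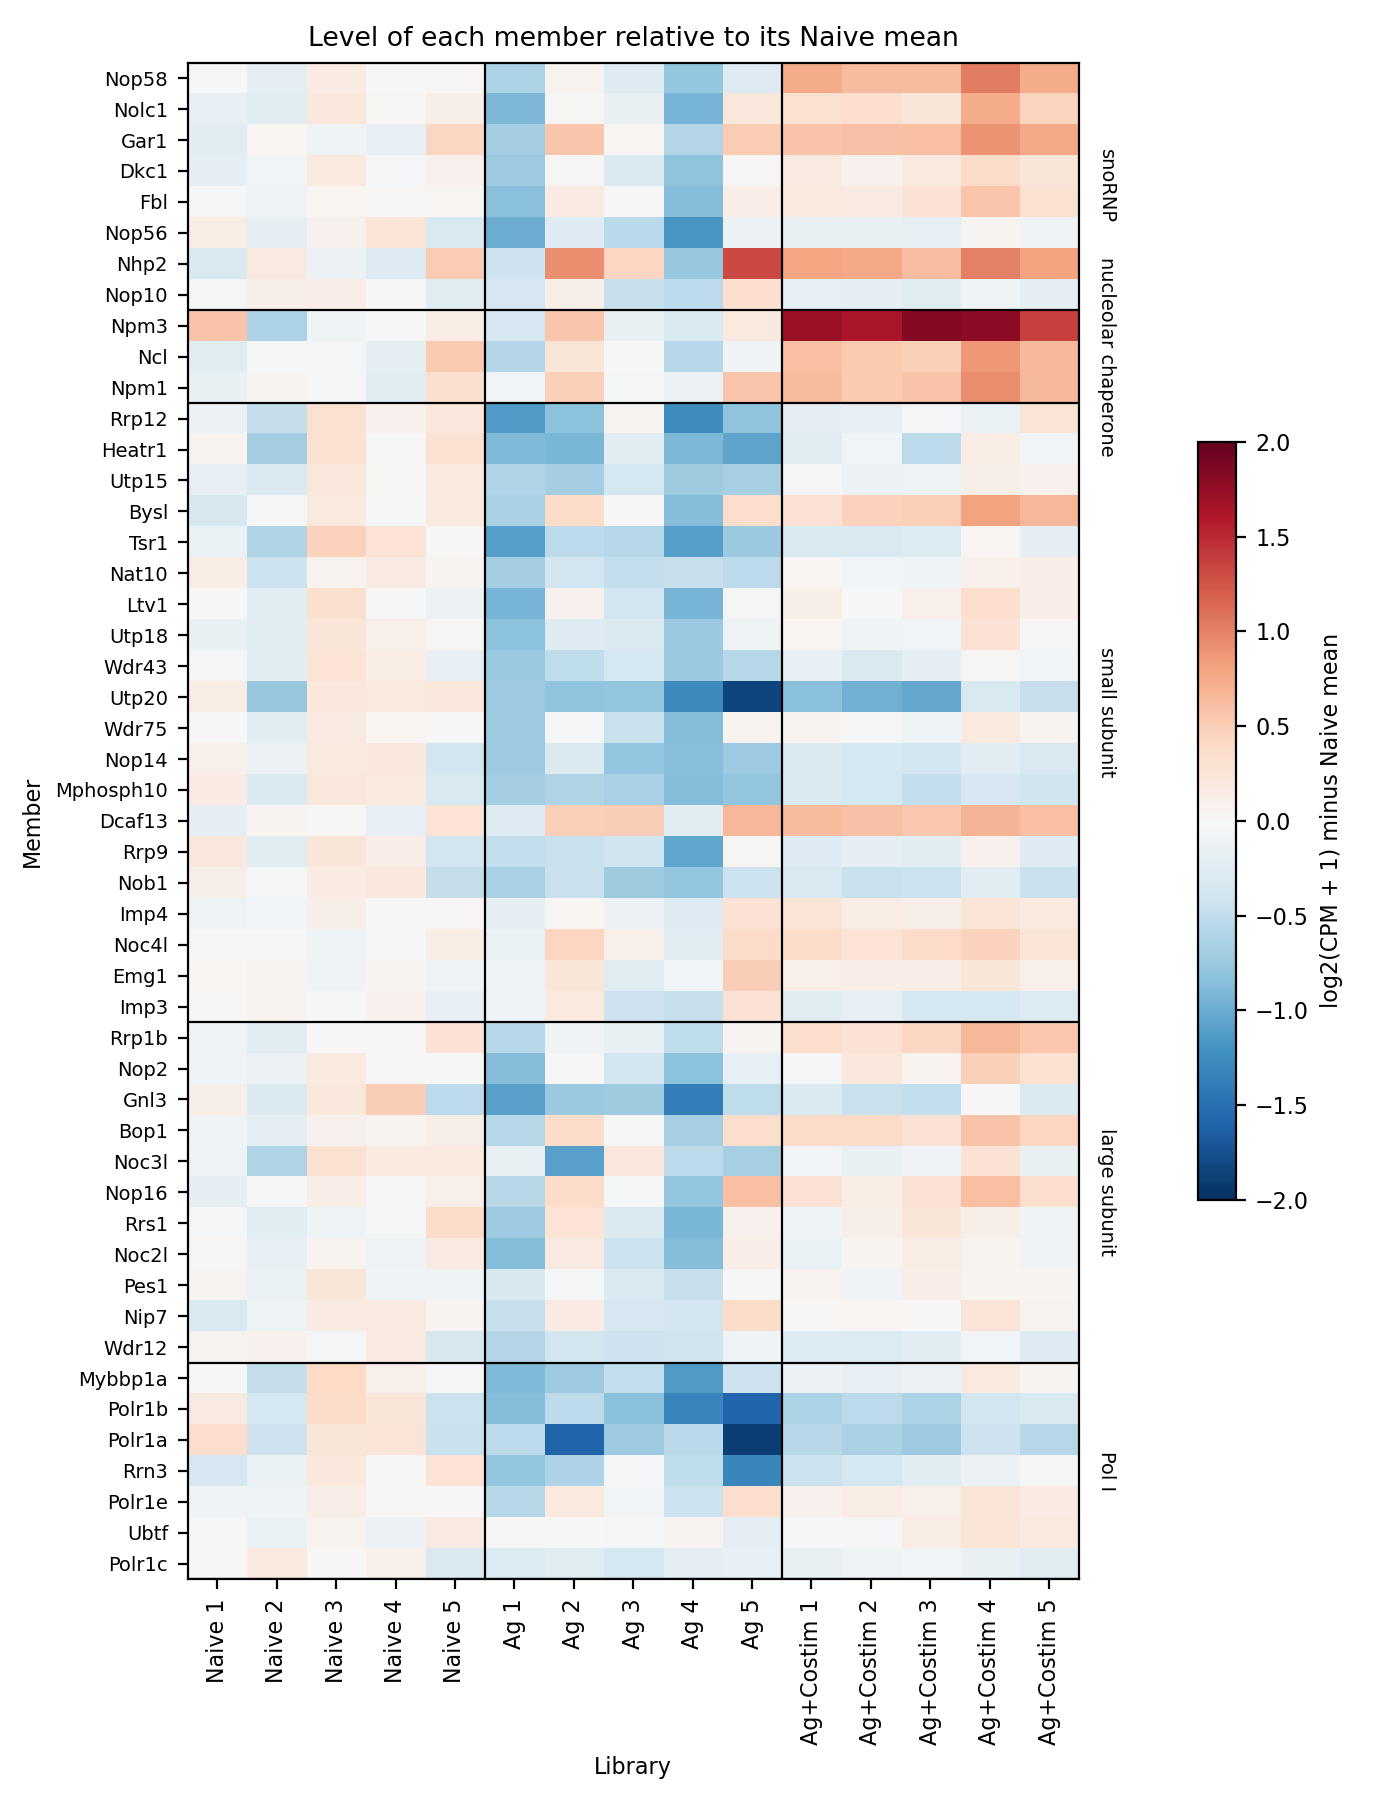
Level of each of the 49 members (rows, by step and then by difference between Ag+Costim and Ag) in each of the 15 libraries (columns), as log2(CPM + 1) minus the member's mean in Naive. Red is above and blue below the Naive mean. Most members are blue in Ag 1 and Ag 4, and Npm3 is the darkest red row in all 5 Ag+Costim libraries.

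The first comparison asks what costimulation added to antigen. With costimulation, 47 of 49 members had a higher fitted level, with a median log2 fold change of 0.47 (range -0.17 to 1.74) against -0.10 over all genes tested. At an unadjusted p under 0.05, 27 of 49 (55.1%) were higher and 0 were lower, against 7.28% of all genes tested higher and 19.5% lower. The CPM values of Ag+Costim lay above those of Ag with no overlap in 16 of 49 (32.7%), against 4.84% of all genes, and below them in 0 of 49, against 2.20%. At a false discovery rate (FDR) under 0.05 in edgeR's quasi-likelihood test, 2 of 49 rose (4.08%), Npm3 and Nop58, against 0.0288% of all genes rising and 0.00576% falling. Only 6 of 17366 genes passed that threshold in this comparison. The number of members past it changed when 1 library was left out and was 25 without Ag 2 (14.81% of all genes in either direction), 23 without Ag 5 (19.7%), 46 without both (50.5%), 4 without Ag 3 (0.656%), 1 without Naive 1 (0.0167%) or Naive 2 (0.0453%), and 0 without Ag 1, Ag 4, Naive 3, Naive 4 or any 1 Ag+Costim library. Without both Ag 2 and Ag 5, the members' median was 0.91. DESeq2 called 20 members, all higher, and 20.5% of all genes it tested in either direction. With lane as a term, and within lane 2, where Ag+Costim 1 to 3 met the 5 Ag libraries, 0 members and 0 of all genes passed. In each, 47 of 49 members were higher, and the median over all genes was -0.085 and -0.057. At an unadjusted p under 0.05 there were 13 and 11 members. The share of all genes at that p was not worked out for these fits.

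**Figure D3:**
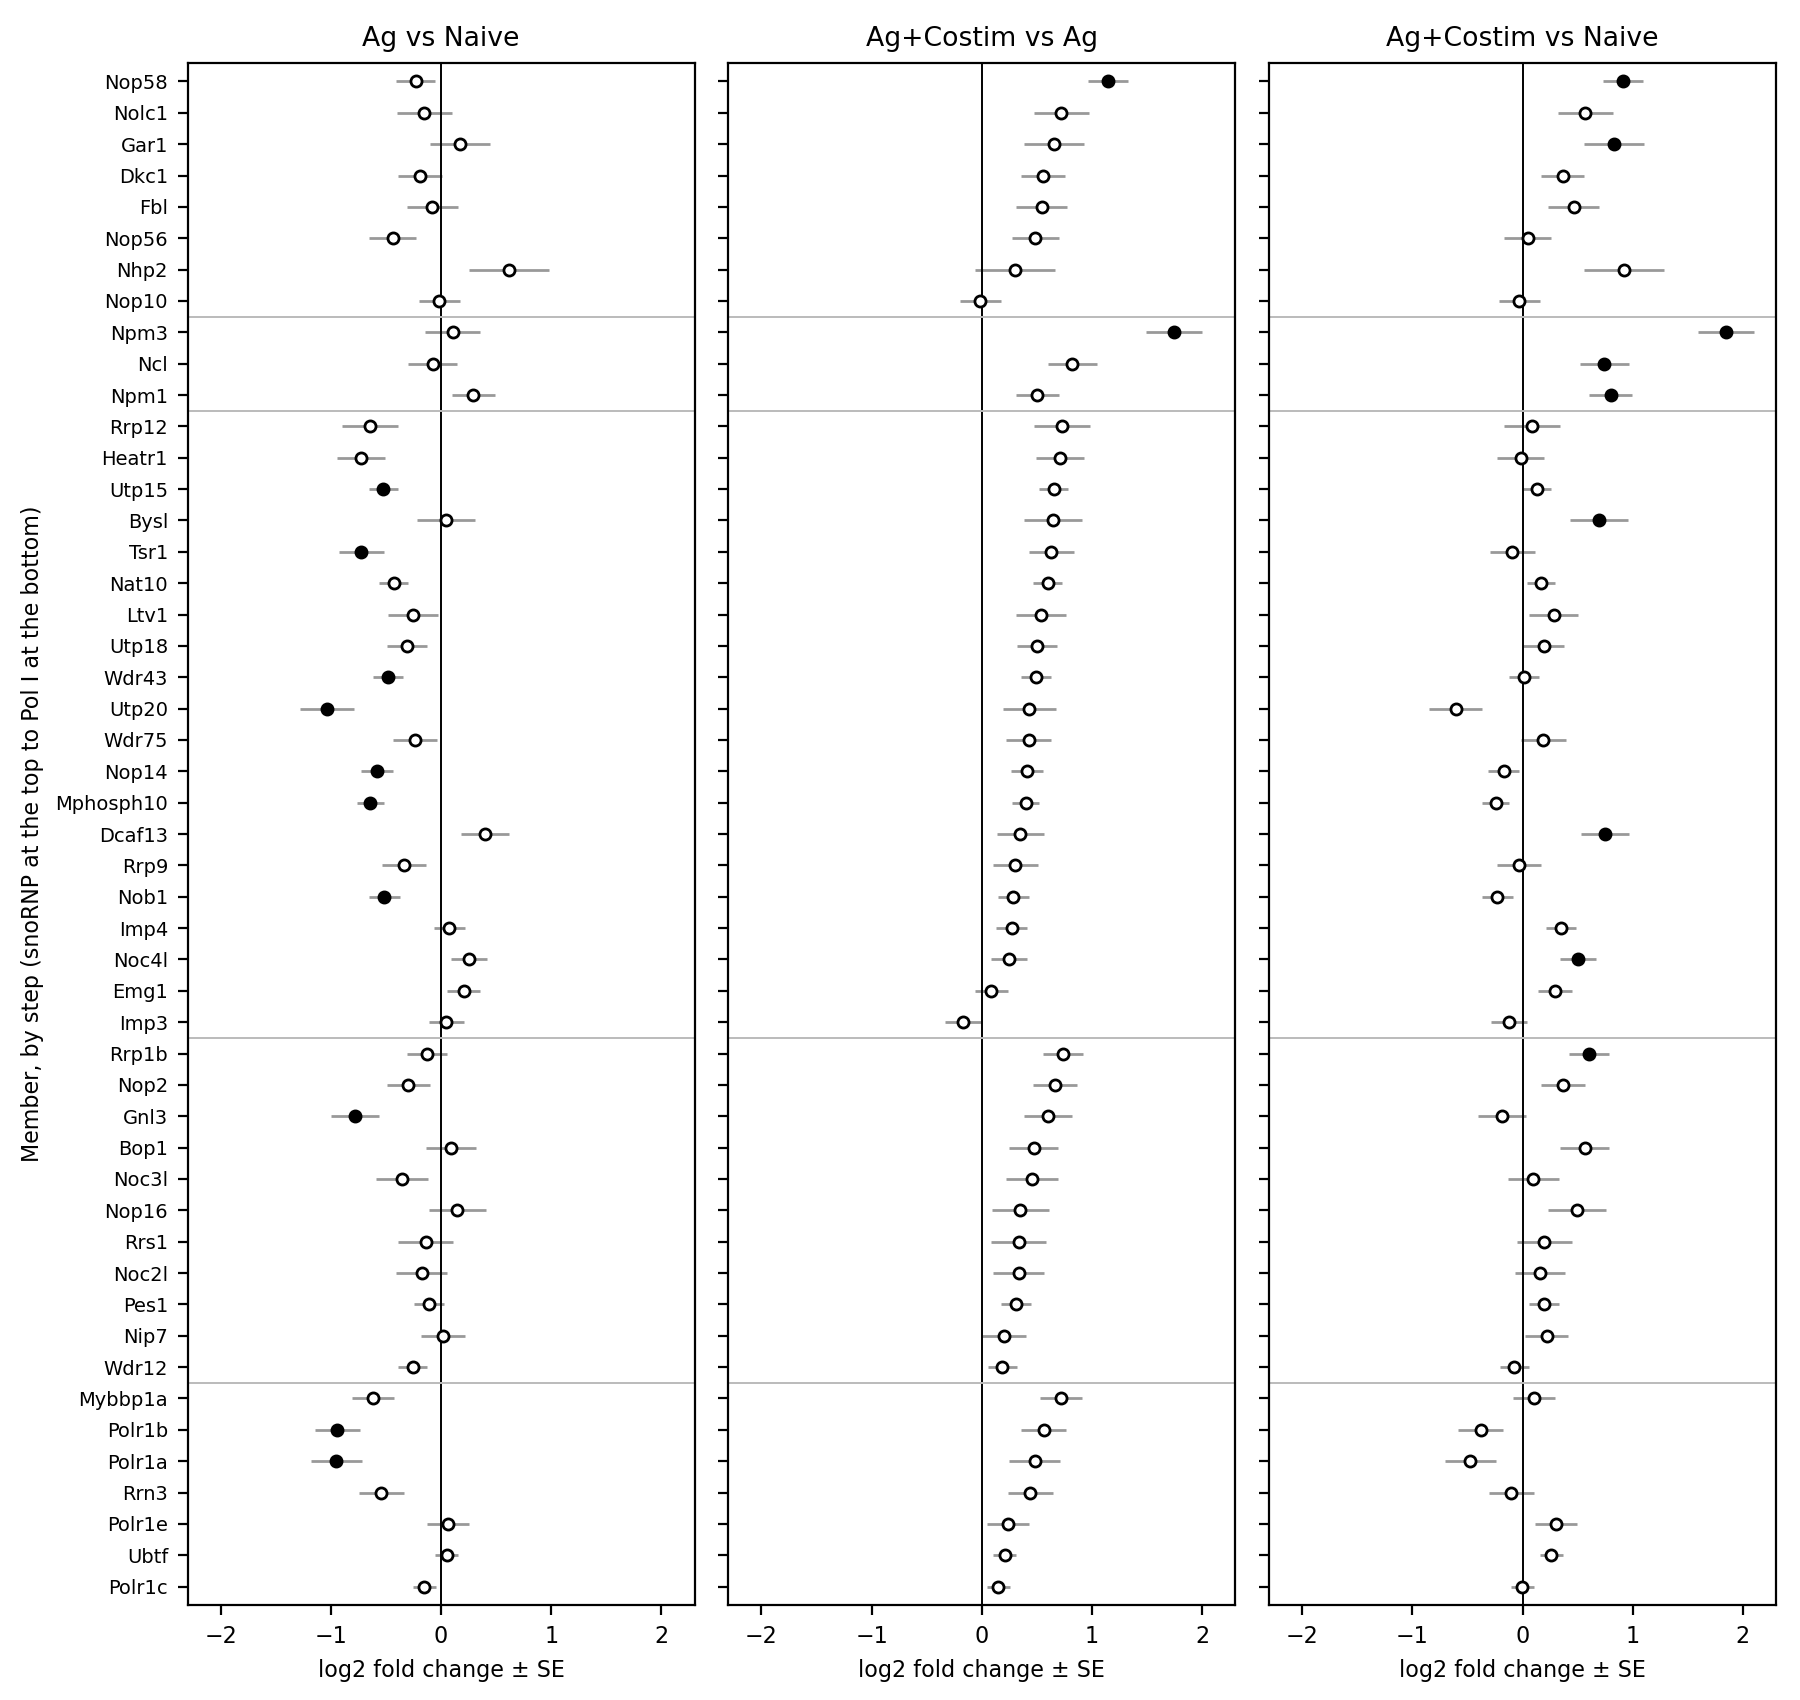
Log2 fold change with its SE from edgeR for each member (rows, by step), in 3 comparisons. Filled points passed FDR 0.05. In Ag+Costim against Ag, all but Nop10 and Imp3 lie to the right of 0, and in Ag against Naive the 10 filled points all lie to the left.

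The nucleolar chaperones had the highest median log2 fold change of the 5 steps, 0.82. Npm3, a small nucleoplasmin-family partner of nucleophosmin (ENSMUSG00000056209.7, chr19:45747734-45749591, minus strand), was at 20.6, 8.34, 12.7, 13.4 and 15.1 CPM in Naive 1 to 5, 10.5, 20.4, 12.1, 10.7 and 15.6 CPM in Ag 1 to 5 and 47.0, 44.0, 50.7, 49.04 and 36.5 CPM in Ag+Costim 1 to 5. Every Ag+Costim library was above every Ag and Naive library, and Ag and Naive overlapped fully. Npm3 rose from 13.9 ± 4.17 to 45.5 ± 5.59 CPM (SD, n = 5; edgeR, log2 fold change 1.74, SE 0.26, FDR 0.0406). Its processed copy Npm3-ps1, which could share its reads, was at 1.07 to 2.72 CPM in Ag libraries and 5.31 to 7.22 CPM in Ag+Costim libraries, and with the counts of processed copies added to their genes Npm3 still passed FDR 0.05 in this comparison and Nop58 did not.

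Nucleolin (Ncl, ENSMUSG00000026234.12, chr1:86344719-86359400, minus strand), an abundant protein of the nucleolus that binds ribosomal RNA precursors, was at 529, 608, 609, 544 and 898 CPM in Naive 1 to 5, 416, 742, 625, 423 and 597 CPM in Ag 1 to 5 and 950.4, 898, 872, 1137 and 984 CPM in Ag+Costim 1 to 5. All Ag+Costim libraries lay above all Ag libraries, and Naive 5, the highest Naive library, reached into the Ag+Costim range. The difference between Ag+Costim and Ag missed the FDR threshold (edgeR, log2 fold change 0.82, SE 0.22, FDR 0.0807). Nucleophosmin (Npm1, ENSMUSG00000057113.13, chr11:33152287-33163206, minus strand), a histone and ribosome chaperone, was at 349.7, 400.2, 382, 334 and 482 CPM in Naive 1 to 5, 373, 535, 377, 357 and 568 CPM in Ag 1 to 5 and 598, 554, 572, 735 and 604 CPM in Ag+Costim 1 to 5. Ag 5 lay above the lowest Ag+Costim library and Ag 2 just below it (edgeR, log2 fold change 0.51, SE 0.19, FDR 0.122). All 3 chaperones rose in Ag+Costim against Naive (edgeR, log2 fold change 1.85 for Npm3, 0.80 for Npm1 and 0.74 for Ncl, with FDR 0.00125, 0.00946 and 0.0193). Of all genes tested, 21.0% rose at FDR under 0.05 in that comparison.

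**Figure D4:**
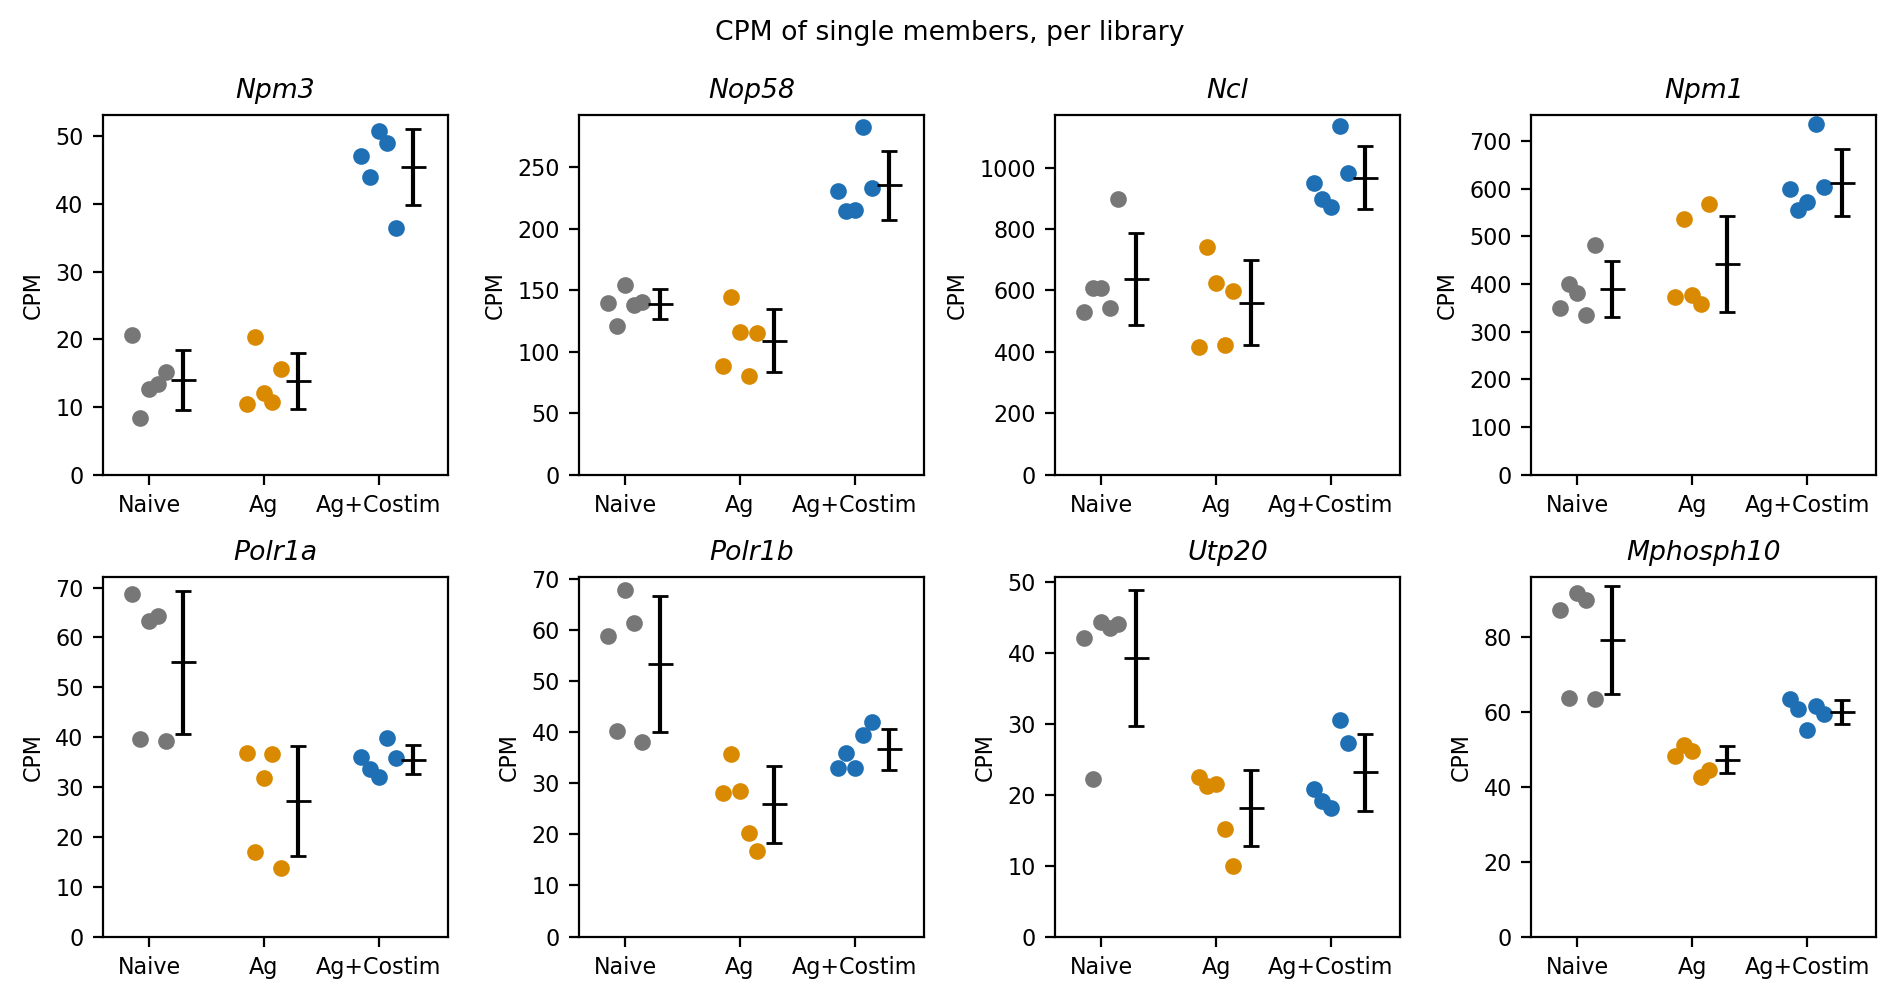
CPM of 8 members in each library, 1 point per library, with the group mean and SD (n = 5) as a bar beside the points. Npm3 and Nop58 show all Ag+Costim libraries above all others, while Polr1a, Polr1b and Mphosph10 show all Ag libraries below all Naive libraries.

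Among the snoRNP genes, 7 of 8 were higher in Ag+Costim than in Ag, 6 at an unadjusted p under 0.05, with a median log2 fold change of 0.55. Over all genes tested, 7316 of 17366 were higher, and 7.28% were higher at that p. The same shares stand beside the counts of the small subunit, large subunit and Pol I genes below. Nop58 (ENSMUSG00000026020.9, chr1:59684971-59719044, plus strand), a core protein of the box C/D snoRNPs that methylate ribose in ribosomal RNA, was at 139, 121, 155, 138 and 141 CPM in Naive 1 to 5, 88.7, 145, 116, 80.2 and 116 CPM in Ag 1 to 5 and 231, 215, 215, 283 and 233 CPM in Ag+Costim 1 to 5. No Ag+Costim library overlapped with an Ag or Naive library. It rose from 109 ± 25.6 to 235 ± 27.9 CPM (SD, n = 5; edgeR, log2 fold change 1.14, SE 0.18, FDR 0.0481). StringTie placed 95.7% of its counts on 1 coding transcript of 9507 bases, so its level per length is low for its count. Its partner Nop56 was the most abundant snoRNP gene by CPM, at 259.7, 206, 249, 281 and 191 CPM in Naive 1 to 5, 118, 196, 162, 105 and 217 CPM in Ag 1 to 5 and 212, 212, 209, 245 and 221 CPM in Ag+Costim 1 to 5. Ag 2 and Ag 5 were close to Ag+Costim, the other Ag libraries were lower, and the groups overlapped (edgeR, log2 fold change 0.49, SE 0.22, FDR 0.169).

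Nop10, a small protein of the H/ACA snoRNPs that turn uridine into pseudouridine, had the lowest log2 fold change of its step, with 210.4, 236, 237, 219 and 188 CPM in Naive 1 to 5, 171, 237, 157, 151 and 275 CPM in Ag 1 to 5 and 195, 189, 183, 205 and 190.1 CPM in Ag+Costim 1 to 5. The 5 Ag+Costim libraries fell inside the range of Ag (-0.013 on the log2 scale). The other H/ACA genes did not follow Nop10: Dkc1, the pseudouridine synthase dyskerin, had a log2 fold change of 0.56 and Gar1 one of 0.66, both with no overlap between the groups, and Nhp2 one of 0.30 with overlap. Fibrillarin (Fbl), the methyltransferase of box C/D snoRNPs, was at 0.54, and Nolc1, a chaperone of snoRNPs, at 0.72, each with no overlap between Ag and Ag+Costim. None of these 6 passed FDR 0.05 in Ag+Costim against Ag. Against Naive, where 21.0% of all genes rose, Gar1 rose (edgeR, log2 fold change 0.83, SE 0.27, FDR 0.0272).

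For the small subunit, 19 of 20 genes were higher in Ag+Costim than in Ag, 11 at an unadjusted p under 0.05 and 0 at FDR 0.05, with a median log2 fold change of 0.43. Rrp12, a factor for export of the small subunit precursor, had the highest log2 fold change of its step, with 42.4, 32.7, 56.7, 48.8 and 53.0 CPM in Naive 1 to 5, 20.4, 25.5, 48.3, 18.7 and 25.7 CPM in Ag 1 to 5 and 40.1, 41.0, 45.3, 41.8 and 55.2 CPM in Ag+Costim 1 to 5. Ag 3 alone among Ag libraries fell inside the Ag+Costim range (edgeR, log2 fold change 0.73, SE 0.26, FDR 0.104). Emg1, a methyltransferase and the most abundant gene of the step by CPM, was at 214, 218, 198, 218 and 197 CPM in Naive 1 to 5, 194, 247, 176, 202 and 293 CPM in Ag 1 to 5 and 224, 228, 229, 246 and 224 CPM in Ag+Costim 1 to 5. Its groups overlapped widely (edgeR, log2 fold change 0.087, SE 0.15, FDR 0.732). Imp3, a subunit of the early processing complex, was the only gene of the step with a lower fitted level in Ag+Costim, at 65.3, 67.7, 65.9, 69.6 and 58.1 CPM in Naive 1 to 5, 61.1, 74.9, 48.7, 47.1 and 79.5 CPM in Ag 1 to 5 and 55.9, 57.9, 51.1, 50.7 and 54.0 CPM in Ag+Costim 1 to 5. Ag 2 and Ag 5 were its highest libraries (edgeR, log2 fold change -0.17, SE 0.16, FDR 0.502), and without them its log2 fold change was 0.36. Imp4 and Mphosph10, its partners in that complex, had log2 fold changes of 0.27 and 0.40.

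All 11 large subunit genes were higher in Ag+Costim than in Ag, 4 at an unadjusted p under 0.05 and 0 at FDR 0.05, with a median log2 fold change of 0.35. Rrp1b, a nucleolar protein of ribosome assembly, had the highest log2 fold change among them, with 42.8, 38.1, 45.1, 44.4 and 55.1 CPM in Naive 1 to 5, 29.7, 42.8, 40.5, 31.1 and 46.4 CPM in Ag 1 to 5 and 57.5, 54.8, 59.9, 71.9 and 65.9 CPM in Ag+Costim 1 to 5. Ag and Ag+Costim did not overlap (edgeR, log2 fold change 0.74, SE 0.18, FDR 0.0807). Rrp1b rose in Ag+Costim against Naive (log2 fold change 0.61, SE 0.18, FDR 0.0195), where 21.0% of all genes rose. With counts of protein-coding transcripts alone, that difference missed the threshold (edgeR, log2 fold change 0.48, FDR 0.237). Noc2l, the most abundant by CPM and also known as an inhibitor of histone acetylation, was at 160.4, 141, 167, 147 and 176 CPM in Naive 1 to 5, 86.3, 179.6, 116, 86.3 and 173 CPM in Ag 1 to 5 and 143, 164, 175, 164 and 151 CPM in Ag+Costim 1 to 5. Ag 2 and Ag 5 were at or above most Ag+Costim libraries and Ag 1, 3 and 4 below all of them (edgeR, log2 fold change 0.33, SE 0.23, FDR 0.362). Wdr12 had the lowest log2 fold change, with 81.6, 82.8, 77.0, 88.8 and 62.5 CPM in Naive 1 to 5, 51.9, 60.1, 58.4, 59.2 and 73.5 CPM in Ag 1 to 5 and 64.1, 64.0, 67.3, 74.7 and 64.8 CPM in Ag+Costim 1 to 5. It overlapped between the groups (edgeR, log2 fold change 0.19, SE 0.13, FDR 0.378). Pes1 and Bop1, which form a complex with Wdr12, had log2 fold changes of 0.31 and 0.47.

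All 7 Pol I genes were higher in Ag+Costim than in Ag, 3 at an unadjusted p under 0.05 and 0 at FDR 0.05, with a median of 0.44. Mybbp1a, a nucleolar protein that binds Pol I and MYB, was both the most abundant by CPM and the one with the highest log2 fold change, with 218, 155, 284, 233 and 212 CPM in Naive 1 to 5, 117, 131, 154, 98.3 and 162 CPM in Ag 1 to 5 and 199, 192, 199.8, 247 and 226 CPM in Ag+Costim 1 to 5. Ag and Ag+Costim did not overlap, and Naive covered the Ag+Costim range (edgeR, log2 fold change 0.72, SE 0.19, FDR 0.0807). Polr1c, a subunit shared with RNA polymerase III, had the lowest log2 fold change, with 41.7, 48.3, 42.4, 45.4 and 34.2 CPM in Naive 1 to 5, 34.6, 35.6, 32.7, 37.1 and 37.4 CPM in Ag 1 to 5 and 37.7, 39.0, 40.4, 37.7 and 35.4 CPM in Ag+Costim 1 to 5. Its Ag and Ag+Costim libraries overlapped (edgeR, log2 fold change 0.15, SE 0.10, FDR 0.360). Rrn3, the initiation factor of Pol I, and Ubtf, which binds the ribosomal DNA, had log2 fold changes of 0.44 and 0.21.

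The second comparison asks what antigen alone left changed at the time of collection. In Ag against Naive, the members were on balance lower, with a median log2 fold change of -0.19 (range -1.04 to 0.62) against 0.08 over all genes tested. At FDR 0.05 in edgeR, 10 of 49 fell (20.4%) and 0 rose, against 3.66% of all genes tested falling and 3.05% rising. At an unadjusted p under 0.05, 15 of 49 (30.6%) were lower and 0 higher, against 13.5% and 15.2% of all genes. Ag lay below Naive with no overlap in 5 of 49 (10.2%), against 2.26%, and above it in 0 of 49, against 1.36%. Of the 10 that fell, 7 were small subunit genes, 2 Pol I genes and 1 a large subunit gene. No lane held both groups, so lane and group cannot be told apart without Ag+Costim. With lane as a term, informed by Ag+Costim alone, 0 members and 0 of all genes passed FDR 0.05. In that fit 1 member had an unadjusted p under 0.05, and the share of all genes at that p was not worked out. Calls over all genes, in either direction, are given in brackets for the alternatives that follow, against 6.71% for the fit above. The count was 1 without Naive 1 (1.42%), Naive 3 (1.48%) or Naive 4 (1.52%), 4 without Ag 2 (2.84%), and 0 with the 10 libraries of the 2 groups alone (0.0358%) or without the filter on low counts (0.425%). It was 6 without Ag 1 (10.4%) or Ag 4 (10.99%), 10 without Naive 5 (21.5%) and 5 without any 1 Ag+Costim library (3.15% to 4.12%). Without both Ag 2 and Ag 5 it was 23 (4.61%), and with DESeq2 it was 15 (15.5%).

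Both of the biggest subunits of Pol I fell. Polr1a, the catalytic subunit (ENSMUSG00000049553.11, chr6:71909053-71984935, plus strand), was at 68.6, 39.6, 63.3, 64.3 and 39.2 CPM in Naive 1 to 5, 36.7, 17.0, 31.9, 36.7 and 13.7 CPM in Ag 1 to 5 and 36.1, 33.6, 32.1, 39.8 and 35.9 CPM in Ag+Costim 1 to 5. All Ag libraries lay below all Naive libraries, with Ag 2 and Ag 5 the lowest of all 15, and Ag+Costim lay near the top of Ag. Polr1a fell from 55.0 ± 14.4 to 27.2 ± 11.04 CPM (SD, n = 5; edgeR, log2 fold change -0.95, SE 0.23, FDR 0.0284). Polr1b, the second subunit of the catalytic core (ENSMUSG00000027395.15, chr2:129100995-129126594, plus strand), was at 58.7, 40.3, 67.9, 61.4 and 38.1 CPM in Naive 1 to 5, 28.2, 35.7, 28.6, 20.4 and 16.7 CPM in Ag 1 to 5 and 33.0, 35.9, 32.9, 39.4 and 42.0 CPM in Ag+Costim 1 to 5. Again no Ag library reached the lowest Naive library, and as for Polr1a and Mphosph10 the lowest Naive libraries were Naive 2 and 5, those with the most myeloid marker counts, whose part was not tested (edgeR, log2 fold change -0.94, SE 0.21, FDR 0.0188). Against Naive, Ag+Costim had log2 fold changes of -0.47 for Polr1a and -0.38 for Polr1b, neither past FDR 0.05. Polr1c, Polr1e and Ubtf had log2 fold changes between Ag and Naive of -0.15, 0.066 and 0.053.

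The 7 small subunit genes that fell act at different points. Utp20, a very long protein of the early processing complex (ENSMUSG00000004356.8, chr10:88746607-88826804, minus strand), was at 42.1, 22.2, 44.3, 43.5 and 44.1 CPM in Naive 1 to 5, 22.5, 21.3, 21.6, 15.2 and 9.998 CPM in Ag 1 to 5 and 20.8, 19.2, 18.2, 30.5 and 27.3 CPM in Ag+Costim 1 to 5. Naive 2 lay among the Ag libraries, and the other 4 Naive libraries lay above all of them (edgeR, log2 fold change -1.04, SE 0.24, FDR 0.0250). Mphosph10 (ENSMUSG00000030521.11, chr7:64376527-64392268, minus strand), which scaffolds that complex with Imp3 and Imp4, was at 87.4, 63.9, 91.8, 90.1 and 63.5 CPM in Naive 1 to 5, 48.3, 51.2, 49.7, 42.5 and 44.7 CPM in Ag 1 to 5 and 63.6, 60.8, 55.2, 61.6 and 59.4 CPM in Ag+Costim 1 to 5. Every Ag library was below every Naive library (edgeR, log2 fold change -0.64, SE 0.12, FDR 0.0127), and the call held in all 15 fits that left out 1 library.

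Utp15, a subunit of the complex that first binds the precursor, was at 62.4, 57.0, 81.8, 71.2 and 79.7 CPM in Naive 1 to 5, 45.7, 43.3, 54.3, 42.5 and 43.6 CPM in Ag 1 to 5 and 68.3, 64.6, 64.7, 75.6 and 73.9 CPM in Ag+Costim 1 to 5. No Ag library reached Naive (edgeR, log2 fold change -0.52, SE 0.13, FDR 0.0325). Wdr43, another subunit of that complex, was at 170.5, 150.4, 211, 195 and 156 CPM in Naive 1 to 5, 105, 123, 137, 104 and 117 CPM in Ag 1 to 5 and 156, 143, 154, 179 and 169 CPM in Ag+Costim 1 to 5. It too did not overlap (edgeR, log2 fold change -0.48, SE 0.14, FDR 0.0495). Nop14, a factor of small subunit assembly, was at 60.9, 51.8, 64.4, 65.5 and 42.9 CPM in Naive 1 to 5, 33.9, 45.9, 32.5, 30.7 and 33.5 CPM in Ag 1 to 5 and 46.2, 44.2, 43.0, 48.6 and 45.4 CPM in Ag+Costim 1 to 5. Ag 2 overlapped with Naive 5 (edgeR, log2 fold change -0.58, SE 0.14, FDR 0.0286).

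Tsr1, a factor bound to late small subunit precursors, was at 92.4, 66.5, 140.0, 123 and 101 CPM in Naive 1 to 5, 46.8, 70.6, 67.8, 46.7 and 60.4 CPM in Ag 1 to 5 and 81.9, 81.7, 83.8, 104 and 89.9 CPM in Ag+Costim 1 to 5. Naive 2 lay inside the Ag range (edgeR, log2 fold change -0.72, SE 0.21, FDR 0.0490). Nob1, the endonuclease of the last cut, was at 78.1, 70.5, 80.8, 83.4 and 51.5 CPM in Naive 1 to 5, 45.2, 52.2, 43.6, 41.2 and 53.2 CPM in Ag 1 to 5 and 57.8, 52.7, 53.3, 62.1 and 52.6 CPM in Ag+Costim 1 to 5. Naive 5 lay inside the Ag range (edgeR, log2 fold change -0.52, SE 0.14, FDR 0.0424). Wdr43, Tsr1 and Nob1 were close to the threshold. The large subunit gene was Gnl3 (nucleostemin, a GTP-binding protein of the nucleolus), at 93.8, 70.6, 101, 123 and 60.2 CPM in Naive 1 to 5, 40.4, 51.2, 52.8, 32.5 and 60.6 CPM in Ag 1 to 5 and 70.7, 63.3, 61.1, 86.2 and 71.0 CPM in Ag+Costim 1 to 5. Ag 5 and Naive 5 were alike, and the other Ag libraries lay below Naive (edgeR, log2 fold change -0.78, SE 0.22, FDR 0.0469).

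Some members held many of their counts on transcripts annotated as non-coding. The share of a member's counts on protein-coding transcripts was 97.0% for the median member of Naive, 97.2% for Ag and 99.0% for Ag+Costim, but it varied between genes. For Gnl3 it averaged 52.2% in Naive (38.7% to 71.7%), 81.4% in Ag (53.7% to 95.3%) and 83.2% in Ag+Costim (64.1% to 91.0%). With counts of protein-coding transcripts alone, an alternative chosen after seeing the data, the log2 fold change of Gnl3 in Ag against Naive was -0.11 (FDR 0.798) in place of -0.78. For Nop56 the coding share averaged 35.6% in Naive (10.4% to 86.4%), 73.3% in Ag (35.8% to 94.1%) and 72.5% in Ag+Costim (40.5% to 87.8%), and its log2 fold change was 0.68 in place of -0.44. Polr1a (FDR 0.0803) and Nob1 (FDR 0.182) also missed the threshold, with log2 fold changes of -0.92 and -0.38 in place of -0.95 and -0.52. Polr1b, Utp20, Tsr1, Mphosph10, Nop14, Utp15 and Wdr43 stayed past the threshold. Of the members named above, Mybbp1a newly passed it (-0.74, FDR 0.0492). With members not named here counted too, 9 of 49 passed in that fit. The share of all genes called there, in either direction, was 4.48%, against 6.71% with all transcripts. Npm3 and Nop58 stayed past the threshold in Ag+Costim against Ag, at 1.82 and 1.23. In Ag+Costim against Naive, Rrp1b missed the threshold (0.48, FDR 0.237, in place of 0.61) and Emg1 newly passed it (0.80, FDR 0.0178). Npm3, Npm1, Ncl and Nop58 stayed past it there. The share of all genes called in that comparison, in either direction, was 41.1%, against 44.7% with all transcripts. Reads of 50 bases leave the split between transcripts of a gene uncertain.

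In a test of transcript shares themselves, 33 of 49 members had at least 2 tested transcripts. Calls required a gene FDR under 0.05 and, for 1 and the same transcript, both an FDR under 0.05 and a share change of 0.1 or more. By this rule 0 of 33 were called in Ag+Costim against Ag (edgeR's diffSpliceDGE), against 0.973% of 7501 genes, and 0 of 33 in Ag against Naive, against 0.547%. At an unadjusted p under 0.05 there were 7 (21.2%) and 4 (12.1%), against 8.69% and 5.97% of all genes. Wdr75, a small subunit factor, passed the gene FDR in both comparisons (0.00604 and 0.00312). Its 1 transcript past the FDR, a retained-intron transcript, changed its share by under 0.1, while its coding transcript had a share higher by 0.10 in Ag than in Naive without passing the FDR itself. Mybbp1a passed it in Ag+Costim against Ag (FDR 0.0476), also under that size. Limma's diffSplice called 1 member (Gnl3) in Ag against Naive. The share of all genes it called is not given here, so that call cannot be set against it.

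The third comparison sets costimulated against Naive cells. Relative to Naive, 34 of 49 members were higher, with a median log2 fold change of 0.19 against -0.08 over all genes. At FDR 0.05, 9 of 49 (18.4%) rose and 0 fell, against 21.0% of all genes rising and 23.6% falling, so the share of members that rose was near that of all genes. At an unadjusted p under 0.05, 14 (28.6%) were higher and 1 (2.04%) lower, against 26.1% and 29.6%. The CPM values did not overlap in 13 higher (26.5%) and 1 lower (2.04%), against 18.3% and 27.3%. The 9 were the 3 chaperones, Nop58 (log2 fold change 0.91), Gar1 (0.83), Dcaf13 (0.75), Bysl (0.70), Rrp1b (0.61) and Noc4l (0.50). Dcaf13, Bysl and Noc4l are small subunit factors. None was a Pol I gene. The count was 3 with lane as a term (5.43% of all genes in either direction, against 44.7% for the fit above) and 15 within lane 3 (34.7%), where Ag+Costim 4 and 5 met the 5 Naive libraries. It was 25 without Ag 2 and Ag 5 together (56.4%), 16 without Ag 2 (46.9%), 15 without Ag 5 (51.1%), and 4 without Naive 1 (21.9%) or Naive 4 (21.6%).

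Compared per length (TPM, the transcript counts per kilobase scaled to a common total), Npm1 was the most abundant member, at a mean of 541 over 15 libraries, followed by Emg1 (327), Nop10 (275), Nhp2 (212) and Nop56 (181). The lowest were Utp20 (5.86), Noc3l (7.78) and Polr1a (8.68). Npm3 averaged 24.8 ± 7.83 TPM for Naive, 22.6 ± 6.37 TPM for Ag and 79.6 ± 9.51 TPM for Ag+Costim (SD, n = 5). Across the 49 members, the mean transcript length and the log2 fold change were related in Ag against Naive with a Spearman rho of -0.51 (-0.20 across 17366 genes) and in Ag+Costim against Ag with 0.38 (-0.12). These correlations are across genes measured in the same libraries, which are not independent replicates.

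Other genes of the pathway were set beside the members. Of 120 other ribosome biogenesis factors tested, 109 were higher in Ag+Costim than in Ag, against 7316 of 17366 over all genes. Their median log2 fold change was 0.27. At an unadjusted p under 0.05, 40 were higher and 2 lower, against 7.28% and 19.5% of all genes, with 0 past FDR 0.05. The highest were Pelp1 (0.78), Nol10 (0.78) and Ftsj3 (0.76), all without passing FDR 0.05. The lowest were Mdn1 (-0.68), Diexf (-0.60) and Nop53 (-0.38). In Ag against Naive, 15 of 120 fell (12.5%, against 3.66% of all genes) and 1 rose (0.83%, against 3.05%), Polr1d (log2 fold change 0.69, edgeR FDR 0.0318), a small subunit of RNA polymerases I and III. Sdad1 (-0.74, FDR 0.00874) and Dhx33 (-0.73, FDR 0.0182) were among the 15. These 3 were chosen after their values were seen. Cytosolic ribosomal proteins, which these factors assemble into ribosomes, had 14 of 81 genes higher in Ag+Costim against Ag, against 7316 of 17366 over all genes. Their median there was -0.17, against -0.10 over all genes. In Ag against Naive, 62 of 81 were higher, against 9684 of 17366, with a median of 0.08, as for all genes. Mitochondrial ribosomal proteins had medians of 0.14 and 0.41. In Ag+Costim against Naive, 49 of 77 of them rose (63.6%), against 21.0% of all genes, and 25 of 120 other biogenesis factors rose (20.8%), a share near that of all genes, and 12 fell (10%), against 23.6%.

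**Figure D5:**
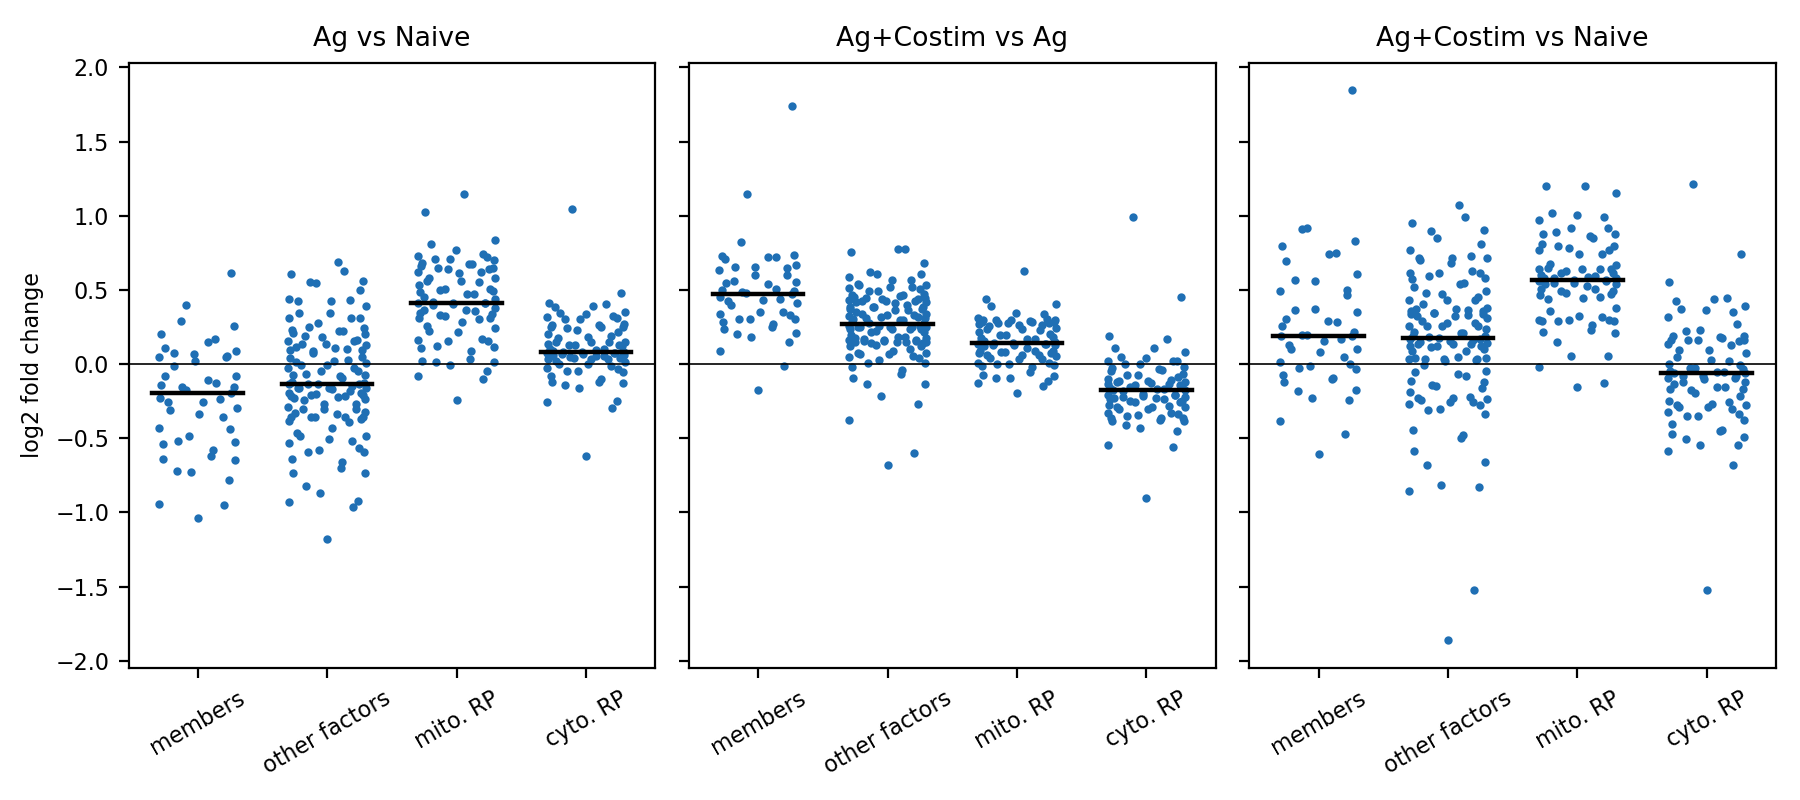
Log2 fold change of each gene (points) in the members, the other ribosome biogenesis factors, the mitochondrial ribosomal proteins (mito. RP) and the cytosolic ribosomal proteins (cyto. RP), with the median as a line, in 3 comparisons. In Ag+Costim against Ag the medians are 0.47, 0.27, 0.14 and -0.17 in that order.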

How the data were processed

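RNA of 15 libraries was amplified with SMART-Seq v4, made into Nextera XT libraries and sequenced, per the labels, as single reads of 50 bases. Per the submitters' processing notes, HISAT2 2.1.0, SAMtools 1.9, StringTie 2.1.0, R 4.0.5 and DESeq2 1.30.1 were used on mm10. The authors deposited StringTie's estimated counts per gene and transcript as whole numbers. The strand setting was not given in the sources used here. Per the file headers, the sequencing table gives the count of reads, the percent aligned and the input amount.

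Of 81881 gene entries, 55536 matched GENCODE vM21 (GRCm38). The 26248 entries named by a number alone and 97 others, together 0.0818% of counts, were left out. edgeR 4.0.16, run under R 4.3.3, served for the tests (filterByExpr, TMM, robust quasi-likelihood fit with all 15 libraries, two-sided, Benjamini-Hochberg FDR over all genes). CPM was scaled to library totals and fold changes to TMM, a display settled after results had been seen. DESeq2 1.42.0 and voom in limma 3.58.1 were alternatives. The tests were run on simulated data first. Members and lists were chosen with earlier results of these data known. Values in every library are given for the most abundant, highest and lowest member of each step and those called in Ag against Naive or Ag+Costim against Ag. From the wider lists, the 3 highest and 3 lowest with at least 5 CPM in the higher group are named. The tables of FPKM, in which Ag 1 and Naive 5 share the same values, and of sample information were not used.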

Additional observations from a re-analysis of the deposited data

Results flagged for a closer look

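In groups of 5 libraries, the levels of the named members and the means of each step were searched for a single library far from the other 4 (a gap above 0.71 of the group's range). Chance alone would give about 1 in 20 groups, or 4.5 of the 90 examined, and 9 were found. In Naive, Ncl was 898 CPM in Naive 5, against 529 to 609 in the others, and Utp20 was 22.2 CPM in Naive 2, against 42.1 to 44.3. In Ag, Rrp12 was 48.3 CPM and Utp15 54.3 CPM in Ag 3, against 18.7 to 25.7 and 42.5 to 45.7, and Nop14 was 45.9 CPM in Ag 2, against 30.7 to 33.9. Ag 3 had the lowest total count and the highest B cell and erythroid marker sums of its group, and their part in these values was not tested. In Ag+Costim, Ag+Costim 4 stood above the others for Nop58 (283 CPM, against 215 to 233), Npm1 (735 CPM, against 554 to 604), Emg1 (246 CPM, against 224 to 229) and the mean log2(CPM + 1) of the large subunit genes (6.36, against 6.11 to 6.17).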

How the results depend on the processing

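Beside counts of members, the percent of all genes called in either direction is given in brackets. In Ag+Costim against Ag, 2 members passed the threshold (0.0346%). The count was 1 without the filter on low counts (0.00612%) or with processed copies added (0.0173%). It was 0 with only the 10 libraries, with lane as a term, within lane 2 or with the replicate block (0% each). It was 20 with DESeq2 (20.5%), 46 with voom (64.5%), 46 without Ag 2 and Ag 5 (50.5%) and 11 without Ag 3 and Naive 5 (5.73%). When 1 library was left out it was 0 to 25 (0% to 19.7%). The median of 0.47 was 0.76 without the filter, 0.90 with voom, 0.91 without Ag 2 and Ag 5, and 0.38 to 0.66 when 1 library was left out. In Ag against Naive, the count of 10 (6.71%) was 0 without the filter (0.425%), with only the 10 libraries (0.0358%) or with lane as a term (0%). It was 6 with the replicate block (9.56%), 34 with voom (23.3%) and 23 without Ag 2 and Ag 5 (4.61%). When 1 library was left out it was 1 to 12 (1.42% to 21.5%). The median of -0.19 was -0.62 with voom, -0.60 without Ag 2 and Ag 5, and -0.34 to -0.10 when 1 library was left out. In Ag+Costim against Naive, the count of 9 (44.7%) was 25 with only the 10 libraries (64.8%), 3 with lane as a term (5.43%) and 15 within lane 3 (34.7%). It was 32 with voom (77.9%), 25 without Ag 2 and Ag 5 (56.4%) and 14 without Ag 3 and Naive 5 (58.5%). When 1 library was left out it was 4 to 16 (21.6% to 51.1%), and the median of 0.19 was 0.13 to 0.29. Scaling to library totals moved the median of all genes in that comparison from -0.08 to -0.23, with 12 members called (46.7%), 8 higher and 4 lower. Shares of all genes are not given for the alternatives on transcript usage. For transcript usage in Ag against Naive the count of 0 was 1 without the filter on transcripts, 1 with limma's diffSplice and 0 to 1 when 1 library was left out. The cause of these changes was not tested. Correlations of same-numbered deviations ranged from -0.32 to 0.47, and they cannot show whether replicate numbers pair the samples. The replicate block counts thus rest on a shared number only. They were 0 and 6 above, and 10 in Ag+Costim against Naive (45.1%). The removal of Ag 2 and Ag 5, of Ag 3 and Naive 5, and the use of coding transcripts were chosen after seeing the data.

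In Ag+Costim against Ag, 46 of 49 members kept their sign in all 28 alternatives, in Ag against Naive 25 of 49 in 27, and in Ag+Costim against Naive 33 of 49 in 28. For named members, log2 fold changes turned as follows. With DESeq2 size factors in edgeR, Wdr43 at -0.019 in Ag+Costim vs Naive had the opposite sign. With library totals alone as the scaling, Npm3 at -0.0057 and Imp3 at -0.059 in Ag vs Naive, Nop56 at -0.11, Rrp12 at -0.069, Mybbp1a at -0.054, Utp15 at -0.025 and Wdr43 at -0.15 in Ag+Costim vs Naive had the opposite sign. Without the filter on low counts, Nop10 at 0.23 and Imp3 at 0.067 in Ag+Costim vs Ag, Imp3 at -0.019 in Ag vs Naive, Nop10 at 0.14, Imp3 at 0.048, Wdr12 at 0.10, Polr1c at 0.17 and Tsr1 at 0.053 in Ag+Costim vs Naive had the opposite sign. With only the 10 libraries of a comparison, Nop56 at -0.012 and Wdr43 at -0.045 in Ag+Costim vs Naive had the opposite sign. With lane as a term, Nop58 at 0.020, Nop10 at 0.073, Ncl at 0.17, Npm3 at -0.014 and Rrp1b at 0.16 in Ag vs Naive, Nop10 at 0.024 and Tsr1 at 0.055 in Ag+Costim vs Naive had the opposite sign. With the replicate block, Nop10 at 0.034 in Ag+Costim vs Ag, Polr1c at 0.0011 in Ag+Costim vs Naive had the opposite sign. Within one lane, Nop10 at 0.027, Wdr12 at 0.0025 and Tsr1 at 0.050 in Ag+Costim vs Naive had the opposite sign. With DESeq2, Nop10 at 0.0083 in Ag+Costim vs Ag, Wdr43 at -0.017 in Ag+Costim vs Naive had the opposite sign. With voom and quality weights, Nop10 at 0.38 and Imp3 at 0.17 in Ag+Costim vs Ag, Npm3 at -0.42, Emg1 at -0.092 and Imp3 at -0.28 in Ag vs Naive, Nop56 at -0.069 and Wdr43 at -0.029 in Ag+Costim vs Naive had the opposite sign. Without Ag 2 and Ag 5, Nop10 at 0.58 and Imp3 at 0.36 in Ag+Costim vs Ag, Npm3 at -0.39, Npm1 at -0.12, Emg1 at -0.16 and Imp3 at -0.35 in Ag vs Naive, Nop10 at 0.10, Imp3 at 0.0038, Wdr12 at 0.056, Polr1c at 0.13 and Tsr1 at 0.023 in Ag+Costim vs Naive had the opposite sign. Without Ag 3 and Naive 5, Nop10 at 0.074 and Ncl at 0.11 in Ag vs Naive, Nop10 at 0.028 and Polr1c at 0.033 in Ag+Costim vs Naive had the opposite sign. With protein-coding transcripts alone, Nop10 at 0.040 in Ag+Costim vs Ag, Nop56 at 0.68 and Imp3 at -0.0072 in Ag vs Naive, Polr1c at 0.032, Gnl3 at 0.52 and Nob1 at 0.017 in Ag+Costim vs Naive had the opposite sign. When 1 library was left out, the values that changed sign in some fit ranged as follows: Emg1 -0.00028 to 0.26, Nop10 -0.11 to 0.19 and Imp3 -0.27 to 0.026 in Ag+Costim vs Ag; Nop10 -0.22 to 0.099, Npm3 -0.11 to 0.27, Ncl -0.25 to 0.12 and Imp3 -0.11 to 0.16 in Ag vs Naive; Nop56 -0.0098 to 0.15, Rrp12 -0.032 to 0.19, Mybbp1a -0.011 to 0.22, Polr1c -0.037 to 0.10, Wdr43 -0.050 to 0.11, Nop10 -0.042 to 0.078, Tsr1 -0.23 to 0.047 and Wdr12 -0.11 to 0.033 in Ag+Costim vs Naive. Estimated counts from single reads of 50 bases, 5 libraries a group and a common biological coefficient of variation of 0.431 limit the precision.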

Other observations

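Genes that regulate growth and division did not all follow the biogenesis genes. Myc, the transcription factor known to drive ribosome biogenesis, was at 166, 101, 169.8, 162 and 82.0 CPM in Naive 1 to 5, at 73.4, 62.5, 56.3, 55.6 and 60.8 CPM in Ag 1 to 5 and at 81.3, 87.1, 82.3, 81.4 and 93.3 CPM in Ag+Costim 1 to 5. The Ag libraries were below all others. Myc fell in Ag against Naive (edgeR, log2 fold change -1.04, SE 0.17, FDR 0.00781) and in Ag+Costim against Naive (-0.52, SE 0.17, FDR 0.0264), and its difference between Ag+Costim and Ag missed the threshold (0.52, SE 0.17, FDR 0.0903). Mycn was at a mean of 0.21 CPM for Naive, 1.70 CPM for Ag and 0.74 CPM for Ag+Costim, and passed the threshold in no comparison.

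Max, the partner of Myc, was at 52.9 ± 22.1 CPM for Naive, 52.9 ± 37.6 CPM for Ag and 85.7 ± 8.98 CPM for Ag+Costim (SD, n = 5), with FDR 0.185 in Ag+Costim against Ag (edgeR). Mki67, which marks dividing cells, was at 16.8 to 331 CPM in Naive, 119 to 365 CPM in Ag and 379 to 434 CPM in Ag+Costim. Naive 5, at 331 CPM, stood above the other Naive libraries (16.8 to 108 CPM), and it was also the highest Naive library for Ncl and Npm1. Mki67 rose in Ag+Costim against Naive (edgeR, log2 fold change 2.14, SE 0.72, FDR 0.0291).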
